A study of Mus musculus with 6 samples.

Results

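The nuclear lamina and envelope genes Lbr, Lmnb1, Lmnb2, Lmna, Sun1, Sun2, Emd and Tmpo were followed in mouse granulocyte-macrophage progenitors as these cells left self-renewal by either of 2 routes. The 8 genes were taken by name from the 27998 gene columns of a single-cell count table, as nuclear envelope genes linked to the lobing of neutrophil nuclei. The rule names the genes and uses no measured value, although the genes were chosen with earlier results of these data known. The envelope genes Lmnb1 and Tmpo were lower and Sun2 was higher at 96 h of HOXA9 OFF, where 39.8% of all genes counted were at least 2-fold lower and 18.1% higher. In CAF-1 OFF none of the 5 genes with enough UMIs to be counted reached a 2-fold difference once 10 CPM had been added to both libraries. Of all genes, 0.856% were lower and 5.22% higher at 96 h of CAF-1 OFF. Closest of the 5 in that arm was Sun2 at 96 h, 2.93-fold (2.02 to 4.36) higher by CPM alone.

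The nuclear lamina is a mesh of intermediate filaments under the inner nuclear membrane, built from B-type lamins (Lmnb1 and Lmnb2) and A-type lamins (Lmna). Lbr, the lamin B receptor, spans the inner membrane, tethers heterochromatin through HP1 proteins and carries a sterol reductase domain, and its loss leaves neutrophil nuclei without lobes in the Pelger-Huët anomaly and in ichthyosis mice. Emd (emerin) and Tmpo (the LAP2 proteins) carry a LEM domain that binds the chromatin protein BAF. Sun1 and Sun2 cross the inner membrane and hold nesprins in the outer membrane, which ties the nucleus to the cytoskeleton. Neutrophils are known for little lamin A and much Lbr.

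The cells were immortalised progenitors (iGMPs) of C57BI/6 mice (spelled as in the labels), held in self-renewal by HOXA9 fused to an estrogen receptor domain and grown with stem cell factor, and all of them carry a GFP reporter driven by the Lysozyme promoter. In CAF-1 OFF, a clone with an IPTG-inducible short hairpin against Chaf1b received 500 µM IPTG for 48 or 96 h while β-estradiol stayed at 150 ng/ml, and the 0 h library had estradiol alone. In HOXA9 OFF, a clone with a control vector was sampled at 0 h in 150 ng/ml estradiol and at 48 and 96 h after estradiol was washed out. Each arm is 1 clone and each of the 6 groups is 1 library, so no difference between groups could be tested and differences are described by size. Likewise the clone and the treatment cannot be told apart between the arms.

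The kept cells numbered 473 to 1510 per library (5872 in all) with 3524285 to 5589486 summed UMIs, which are counts of distinct transcript molecules. The median UMI count per cell ranged from 5956 to 6571 in CAF-1 OFF and was 8660, 3535.5 and 2043.5 at 0, 48 and 96 h in HOXA9 OFF. The filters removed 41.7% and 66.2% of the barcodes at 0 h in CAF-1 OFF and HOXA9 OFF, and 0.198% to 18.3% at the later times. Among kept cells, 16 barcode sequences occurred in more than 1 library. The CAF-1 OFF libraries held 35.6, 3.22 and 6.49 CPM (UMIs of a gene, scaled so that all libraries have the same total) of the hairpin target Chaf1b at 0, 48 and 96 h. In the HOXA9 OFF libraries, where no hairpin was induced, Chaf1b levels were 51.5, 15.3 and 1.13 CPM. Chaf1a, the gene of its partner in CAF-1, kept 23.0 CPM at 96 h of CAF-1 OFF and had 0 UMIs at 96 h of HOXA9 OFF, at least 37.8-fold lower than at 0 h (3 counts of the library). By 96 h, Cebpe, a transcription factor of granule maturation, was at 785 CPM in CAF-1 OFF (67.4 at 0 h), while HOXA9 OFF had 625 CPM (82.3 at 0 h). The 11 late granulocyte genes summed to 1194 CPM at 96 h of CAF-1 OFF and to 144669 CPM at 96 h of HOXA9 OFF, with 0 UMIs of Ltf and Ly6g in the first and UMIs of all 11 in the second.

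RefSeq places 7 of the genes on GRCm38.p6 at chr1:181815315-181842401 (Lbr), chr10:80901363-80918245 (Lmnb2), chr3:88481148-88509932 (Lmna), chr5:139200564-139249839 (Sun1), chr15:79724068-79742536 (Sun2), chrX:74254674-74261563 (Emd) and chr10:91147571-91181752 (Tmpo).

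A promoter sequence was at hand for 7 of the 8, with 11 transcript starts. CCAAT, the core bound by NF-Y, was searched on both strands in the 250 bases before each start and was present in 7 of these 11 promoters (6 of the 7 genes, not Lmnb2) and in 33.8% of 32851 mouse promoters. TTTGAA, the letters of the cell cycle homology region, was present in 3 of the 11 (1 each of Lbr, Sun2 and Tmpo) and in 16.0% of all. TTGCNNAA, a C/EBP-like pattern, was in none of the 11 and in 9.56% of all. TTCCCGCC, an E2F-like pattern, was in 1 of the 11 (the downstream start of Tmpo) and in 1.86% of all. Such letter matches describe the window and do not show binding. The stretches of 3 genes that took different courses in HOXA9 OFF are shown, on the minus strand of GRCm38.p6 and 5′ to 3′, with CCAAT and the reverse complement of TTTGAA in capitals:
Lbr, chr1:181842417-181842477: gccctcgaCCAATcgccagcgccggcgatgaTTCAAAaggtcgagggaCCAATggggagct
Sun2, chr15:79742565-79742639: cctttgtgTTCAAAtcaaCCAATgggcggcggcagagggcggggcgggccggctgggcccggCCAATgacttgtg
Tmpo, chr10:91171628-91171680: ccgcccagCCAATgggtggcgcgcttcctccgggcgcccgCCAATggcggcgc
All 3 stretches, cut to hold the matches of 1 start each, have a pair of CCAAT boxes on the same strand, and those of Lbr and Sun2 also have TTCAAA. Such a pair also lies before 1 start of Sun1, which is not shown. How many of all promoters have a pair was not counted. The TTTGAA of Tmpo lies before its other start. In HOXA9 OFF, Sun2 was higher and Tmpo lower, and Lbr stayed near its starting level.

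Levels are CPM from the UMIs summed over all kept cells in a library, and the intervals given are exact 95% intervals that cover counting error only. UMIs count 3′ ends, so no level was compared between genes. All 8 genes had UMIs in every library, and 5 of them (Lbr, Lmnb1, Sun2, Emd and Tmpo) reached a mean of 20 CPM over the 6 libraries. For Lmnb2, Lmna and Sun1 the means were 14.7, 1.45 and 12.9 CPM. The 2-fold size was read from log2 ratios after adding 10 CPM to both libraries, which understates the change of low genes, and only genes of at least 20 CPM were counted.

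**Figure D1:**
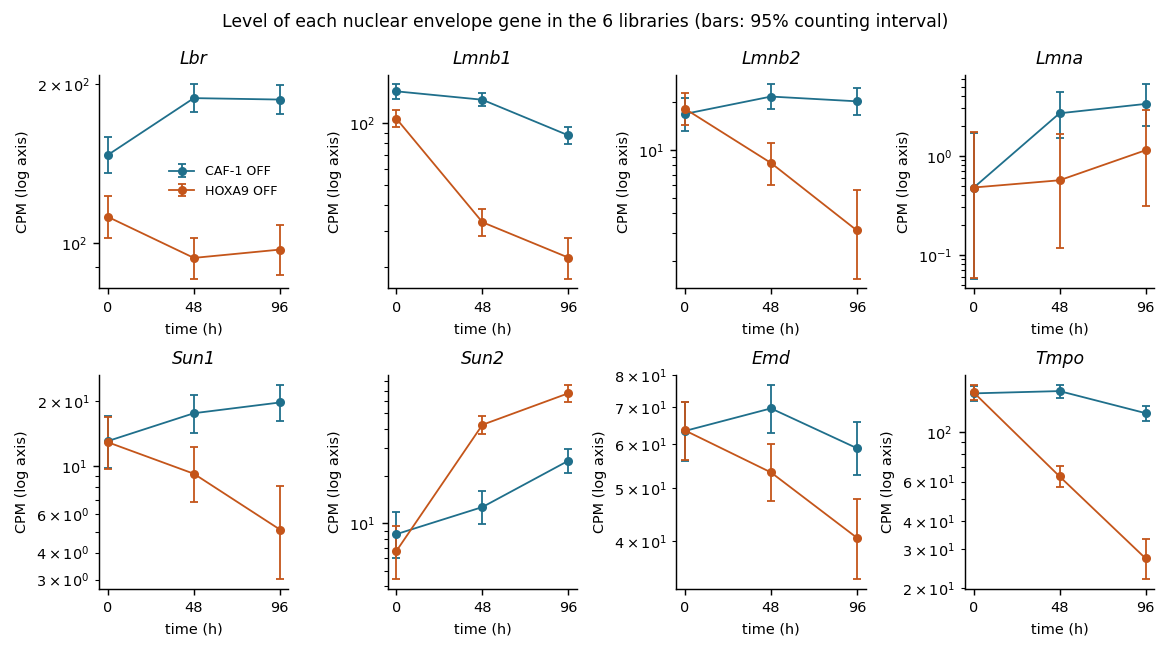
Level of each of the 8 genes (CPM, log axis, a scale of its own per panel) against time (h) in CAF-1 OFF (blue) and HOXA9 OFF (orange), 1 library per point, with exact 95% Poisson intervals. Sun2 goes from 6.68 to 67.2 CPM and Tmpo from 150.1 to 27.2 CPM in HOXA9 OFF, while in CAF-1 OFF the same genes go from 8.54 to 25.03 and from 149 to 121 CPM.

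The B-type lamin gene Lmnb1 (GRCm38.p6 chr18:56707813-56753424) was lower at 96 h than at 0 h in both arms. At 0, 48 and 96 h its CAF-1 OFF levels were 144, 131 and 87.5 CPM. Its HOXA9 OFF levels were 105, 33.0 and 22.1 CPM. Both 0 h libraries were thus the highest of their arm. The HOXA9 OFF levels were 3.20-fold (2.68 to 3.84) lower at 48 h and 4.77-fold (3.74 to 6.14) lower at 96 h than at 0 h. In CAF-1 OFF the 96 h level was 1.64-fold lower (1.45 to 1.85), and the interval at 48 h included no difference (0.910-fold, 0.816 to 1.01). The uninduced libraries themselves differed by 1.36-fold (1.20 to 1.54), a difference that clone and library can give without induction.

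Lmnb2, the second B-type lamin gene, was low, with 16.8, 21.6 and 20.2 CPM across the CAF-1 OFF time course. Across HOXA9 OFF it was 18.1, 8.29 and 3.12 CPM. There it had 76 UMIs at 0 h and 11 at 96 h, a level 5.81-fold (3.07 to 12.1) lower. In CAF-1 OFF its interval included no difference at both times. Lmnb2 was thus low where Lmnb1 was low in HOXA9 OFF, but not at 96 h of CAF-1 OFF, where the ratio to 0 h was 1.20 (0.881 to 1.64).

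Lmna, the gene of lamins A and C, was near the limit of detection in every library. It had 2, 15 and 18 UMIs in CAF-1 OFF (0.475, 2.68 and 3.34 CPM) and 2, 3 and 4 UMIs in HOXA9 OFF (0.477, 0.565 and 1.13 CPM). The CAF-1 OFF libraries at 48 and 96 h were the highest of the 6. Their ratios to 0 h were 5.66 (1.32 to 51.0) and 7.03 (1.68 to 62.5), and both rest on 2 UMIs at 0 h. The 18 UMIs at 96 h lay in 16 of 911 cells, with at most 2 in a cell. In the 0 h library of HOXA9 OFF, both UMIs lay in 1 cell rich in mast cell or basophil genes.

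Marker genes of other lineages also summed higher in CAF-1 OFF. With 2 UMIs of Lmna at 0 h, whether they rose in step with it from 0 h could not be read. From 48 to 96 h the ratio of Lmna was 1.24 (0.592 to 2.65), an interval that included no difference. The 8 mast cell or basophil genes summed to 259, 1427 and 4000 CPM and the 8 megakaryocyte genes to 45.8, 503 and 2697 CPM at 0, 48 and 96 h, led by Cpa3 and Pf4. At 96 h Gzmb, Cma1 and Tpsb2 of the first list and Gp1bb and Gp6 of the second had 0 UMIs. At 96 h, the 16 cells with a UMI of Lmna held 3560 CPM of the mast cell or basophil list against 4009 CPM in the other 895 cells, and 2665 against 2698 CPM of the megakaryocyte list. At 48 h the megakaryocyte sum was 1076 CPM in the 14 cells with a UMI of Lmna and 493 CPM in the other 913, and the mast cell or basophil sum 1844 and 1420 CPM. The late granulocyte list summed to 1713 against 704 CPM at 48 h and to 1957 against 1179 CPM at 96 h. Cells with a UMI of Lmna were also deeper, with medians of 6491.5 against 5993 UMIs at 48 h and 6769 against 5948 at 96 h. The part of these lineages in the level of Lmna was not tested.

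The lamin B receptor gene Lbr was at 147, 188 and 187 CPM during CAF-1 OFF. During HOXA9 OFF it was at 112, 93.6 and 97.0 CPM. Each CAF-1 OFF library was above each HOXA9 OFF library. The CAF-1 OFF levels were 1.28-fold (1.16 to 1.42) and 1.27-fold (1.15 to 1.41) higher than at 0 h. In HOXA9 OFF the ratios were 0.836 (0.736 to 0.951) at 48 h and 0.867 (0.752 to 0.999) at 96 h. All of these were smaller than the 1.31-fold (1.16 to 1.48) difference between the uninduced libraries. With scaling factors from edgeR's TMM in place of the total UMI count, the log2 ratio of Lbr in HOXA9 OFF turned from -0.24 to 0.04 at 48 h and from -0.19 to 0.26 at 96 h, so no direction is given for it in that arm.

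Sun2 gave the largest difference among the 5 genes of at least 20 CPM in HOXA9 OFF. It reached that minimum through the HOXA9 OFF libraries at 48 and 96 h, so its rank is partly set by the minimum. Its levels were 6.68, 42.4 and 67.2 CPM, from 28, 225 and 237 UMIs. The library at 48 h was 6.34-fold (4.27 to 9.76) and that at 96 h 10.1-fold (6.79 to 15.5) above 0 h. In CAF-1 OFF, Sun2 had levels of 8.54, 12.7 and 25.03 CPM, which at 96 h was 2.93-fold (2.02 to 4.36) above 0 h. On the log2 scale with 10 CPM added this CAF-1 OFF difference was 0.92, just under the 2-fold size. The 96 h levels of the arms did not overlap in their intervals (21.0 to 29.6 CPM and 59.0 to 76.4 CPM).

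Its relative Sun1 took another course. Its CAF-1 OFF levels were 13.1, 17.5 and 19.7 CPM, and its HOXA9 OFF levels 12.9, 9.23 and 5.11 CPM. From nearly equal uninduced levels, the 96 h library was 1.51-fold (1.08 to 2.13) higher in CAF-1 OFF and 2.52-fold (1.46 to 4.57) lower in HOXA9 OFF. Of all genes counted, 80.9% had a lower log2 ratio than Sun1 at 96 h of CAF-1 OFF and 49.0% at 96 h of HOXA9 OFF. The nesprin genes, whose proteins bind SUN domains, were read beside them. CAF-1 OFF libraries held 0.475, 3.22 and 5.56 CPM of Syne1, and HOXA9 OFF libraries 1.43, 57.4 and 107 CPM. The last was 74.7-fold (34.0 to 205) above 0 h, where Syne1 had 6 UMIs. Syne2 stood between 7.12 and 14.2 CPM in all 6 libraries.

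Of the LEM domain genes, Tmpo was lower in HOXA9 OFF. Its levels were 150.1, 63.3 and 27.2 CPM, or 2.37-fold (2.07 to 2.72) lower at 48 h and 5.51-fold (4.44 to 6.90) lower at 96 h than at 0 h. In CAF-1 OFF the levels were 149, 152 and 121 CPM, with 96 h 1.23-fold (1.10 to 1.37) below 0 h. The uninduced libraries differed by 1.01-fold (0.903 to 1.13). Tmpo therefore began at one level in both arms and was far apart by 96 h.

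Emd, the emerin gene, varied least among the 5 genes of at least 20 CPM in HOXA9 OFF apart from Lbr. Its CAF-1 OFF levels were 63.4, 69.6 and 59.0 CPM. Those of HOXA9 OFF were 63.5, 53.3 and 40.6 CPM. Its 96 h level in HOXA9 OFF was 1.56-fold (1.27 to 1.93) lower than at 0 h. In CAF-1 OFF both intervals included no difference.

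As a group, and on the scale with 10 CPM added, none of the 5 genes was at least 2-fold higher or lower in CAF-1 OFF at 48 h, where 2.76% of 4789 genes were higher and 0.0418% lower. None was at 96 h, where the shares of all genes were 5.22% and 0.856%. In HOXA9 OFF, Sun2 was higher and Lmnb1 and Tmpo were lower at both times. Of all genes, 13% were higher and 19.6% lower at 48 h, and 18.1% were higher and 39.8% lower at 96 h. With 1 higher and 2 lower of 5, the envelope genes did not stand apart from those shares. The minimum of 20 CPM shapes this count. Sun2 reached it through the HOXA9 OFF libraries at 48 and 96 h (42.4 and 67.2 CPM), where it is called higher. Lmnb2 and Sun1, lower at 96 h of HOXA9 OFF by CPM alone, were below the minimum and not counted. The split of all genes moved with the scaling: with totals, 621 were higher and 940 lower at 48 h and 865 and 1906 at 96 h, and with TMM these were 836 and 641 and then 1249 and 1460 of 4847 genes. Between the uninduced libraries none of the 5 differed 2-fold, with 0.752% of all genes higher and 0.146% lower in the HOXA9 OFF arm. The median log2 ratio over all 8 genes was -0.57 at 96 h of HOXA9 OFF and the median over all genes -0.56. In CAF-1 OFF at 96 h the medians were 0.25 and -0.08. These pairs are of unlike sets, since the 8 include Lmnb2, Lmna and Sun1, below the 20 CPM that all genes had to reach. Among the 5 counted genes the middle log2 ratio was that of Emd, -0.54 at 96 h of HOXA9 OFF and -0.09 at 96 h of CAF-1 OFF.

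**Figure D2:**
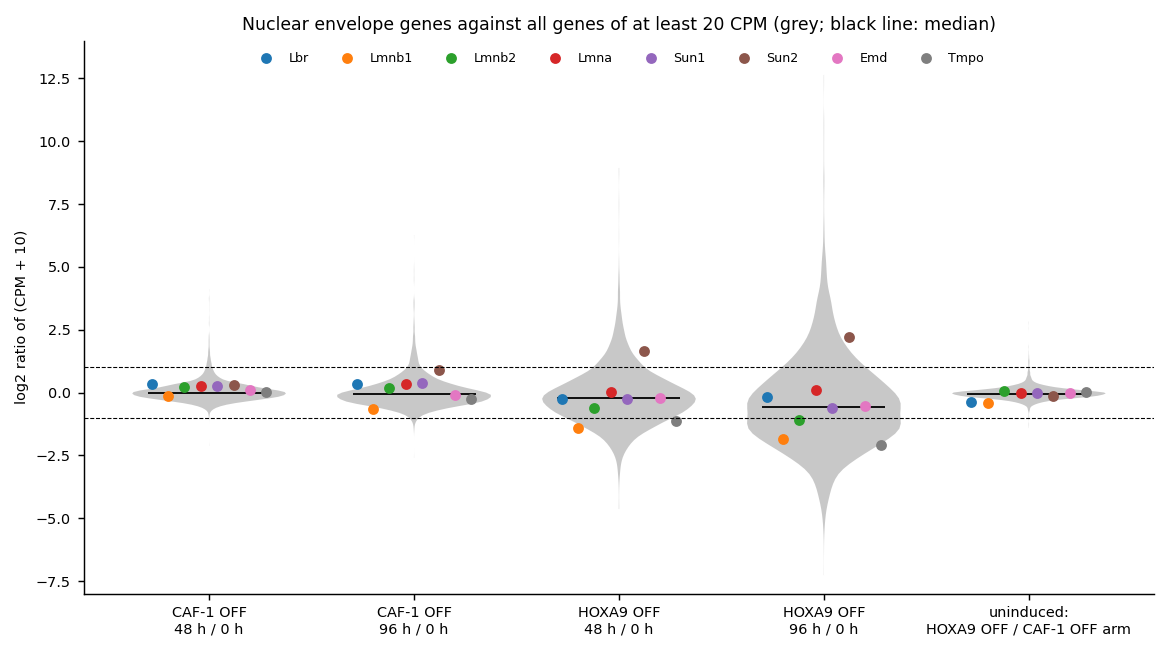
Log2 ratio of (CPM + 10) for the 8 genes (coloured points) in 5 comparisons of libraries, against the distribution over all 4789 genes of at least 20 CPM (grey shapes, median as a black line), with dashed lines at 2-fold. At 96 h of HOXA9 OFF, Sun2 lies at 2.21 and Tmpo at -2.10, and at 96 h of CAF-1 OFF, Sun2 lies at 0.92.

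Each kept cell was thinned to 1300 UMIs and the share of cells with a UMI was taken. At that depth more cells and more molecules per cell cannot be told apart. Sun2 was found in 1.74%, 1.43% and 4.21% of cells in CAF-1 OFF and in 0.636%, 5.01% and 9.52% in HOXA9 OFF. Without thinning the HOXA9 OFF shares were 5.92%, 14.2% and 14.4%, from cells of unequal depth. At 1300 UMIs the 96 h share (8.02% to 11.2%) lay above that at 48 h (3.92% to 6.30%). At 2600 UMIs, which kept 1114 cells at 48 h and 426 at 96 h, the intervals overlapped (8.35% to 11.97% and 11.1% to 18.0%). Lmnb1 was found in 16.3%, 14.2% and 9.31% of thinned cells in CAF-1 OFF and in 13.3%, 3.34% and 3.49% in HOXA9 OFF. At 1300 UMIs the intervals of its 48 and 96 h shares overlapped (2.46% to 4.43% and 2.58% to 4.60%), whereas at 2600 UMIs they did not (5.33% to 8.37% and 1.30% to 4.57%). The unthinned shares were 9.54% and 4.77%.

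Lbr was found in 17.5%, 20.6% and 21.1% of thinned cells in CAF-1 OFF and in 13.6%, 9.23% and 12.8% in HOXA9 OFF. Its unthinned HOXA9 OFF shares of 60.3%, 24.9% and 19.5% follow the depth per cell. Tmpo was found in 13.4%, 17.0% and 12.6% of thinned cells in CAF-1 OFF and in 13.6%, 5.01% and 3.78% in HOXA9 OFF. Emd ranged from 4.94% to 8.21%, Lmnb2 from 0.363% to 3.63% and Sun1 from 0.727% to 2.44%. Thinned shares of Lmna lay between 0% and 0.443%. At 0 h of CAF-1 OFF they were 0 of 633 cells, which at a limit of 3 counts allows up to 0.474% of cells with a UMI at that depth and sets no limit on cells that express the gene. No cell type here should lack envelope genes, so a background from free RNA could not be read from such cells. Cells with UMIs of 2 of the genes were counted for 4 pairs in each library. Lmnb1 and Tmpo were found together in 9 of 1376 thinned cells at 48 h of HOXA9 OFF (0.654%, 0.300% to 1.24%), where the product of their shares was 0.168%. In the other 23 counts the product lay within the interval, as for Lbr and Sun2 at 96 h of HOXA9 OFF with 1.74% (1.12% to 2.58%) against 1.22%.

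Because envelopes are taken apart and rebuilt at mitosis, the cells of each library were split by the share of their UMIs from 25 G2/M genes, none of them among the 8. In the tertile of cells with the highest share, Tmpo stood at 186 CPM against 108 CPM in the lowest tertile at 0 h of CAF-1 OFF, a ratio of 1.72 (1.39 to 2.13). The ratio was 1.76 (1.47 to 2.12) at 48 h and 3.53 (2.75 to 4.59) at 96 h of CAF-1 OFF, and 1.54 (1.25 to 1.90) at 0 h of HOXA9 OFF. Tmpo was thus higher in cells of high G2/M share in each of these 4 libraries. The same held for Lbr, with ratios of 1.56 (1.27 to 1.93), 1.22 (1.04 to 1.42), 1.73 (1.46 to 2.05) and 1.44 (1.13 to 1.85). Lmnb1 gave 1.11 (0.904 to 1.37), 1.06 (0.880 to 1.27), 1.96 (1.51 to 2.57) and 1.75 (1.35 to 2.28), so in the first 2 libraries its interval included no difference. By 96 h of HOXA9 OFF, 39 cells with a G2/M UMI were left, and the intervals of Tmpo, Lbr and Lmnb1 included no difference. Sun2 gave no ratio whose interval excluded 1 in any of the 6 libraries.

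The split gave the largest ratios at 48 h of HOXA9 OFF. There, 887 of 1404 cells had no G2/M UMI, and all of them formed the low group. In CAF-1 OFF and at 0 h of HOXA9 OFF the low tertile still had 0.0378% to 0.0801% of its UMIs from the list. The ratios are therefore not of the same contrast across libraries. Lmnb1 stood at 74.1 CPM in the 468 cells of highest share and at 5.46 CPM in those 887, a ratio of 13.6 (8.10 to 24.3). Tmpo stood at 141 and 11.6 CPM, a ratio of 12.1 (8.49 to 17.8). Lmnb2 gave 6.87 (3.01 to 18.3), Lbr 2.41 (2.00 to 2.92) and Emd 1.58 (1.24 to 2.03), while Sun2 stood at 37.5 and 45.4 CPM (0.826, 0.618 to 1.10). The 517 cells with a G2/M UMI held 159 of the 175 UMIs of Lmnb1 and 302 of the 336 of Tmpo in that library, but 92 of the 225 of Sun2. The cells of high share were also deeper, with a median of 4192 UMIs against 3223, and the part of depth was not tested.

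With 25 S phase genes in place of the G2/M genes, the split gave Tmpo ratios of 1.05 (0.856 to 1.29) and 1.05 (0.859 to 1.27) in the uninduced libraries of CAF-1 OFF and HOXA9 OFF. In these libraries Lbr gave 0.794 (0.647 to 0.974) and 1.01 (0.801 to 1.28). Tmpo and Lbr were thus not higher in uninduced cells of high S phase share. At 48 h of HOXA9 OFF the S phase split gave 24.2 (9.26 to 90.1) for Lmnb1 and 11.4 (6.996 to 19.8) for Tmpo.

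**Figure D3:**
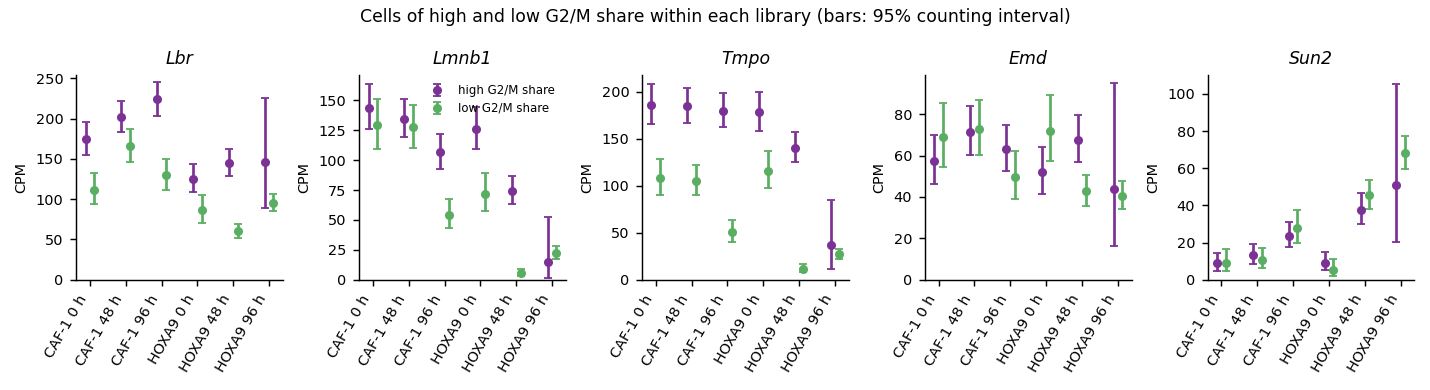
Level (CPM) of 5 genes in cells of high (purple) and low (green) share of G2/M UMIs within each of the 6 libraries, with exact 95% Poisson intervals. At 48 h of HOXA9 OFF, Lmnb1 stands at 74.1 and 5.46 CPM and Tmpo at 141 and 11.6 CPM, while Sun2 stands at 37.5 and 45.4 CPM.

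The G2/M sum of the whole library was 2249, 951 and 25.5 CPM at 0, 48 and 96 h of HOXA9 OFF, so by 96 h hardly any cell showed G2/M transcripts. Cells with no G2/M UMI made up 63.2% of the kept cells at 48 h and 97.4% at 96 h. Within these cells, Lmnb1 was not lower at 96 h but higher, at 22.4 CPM (76 UMIs) against 5.46 CPM (16 UMIs), a ratio of 4.11 (2.37 to 7.55). Tmpo stood at 26.9 against 11.6 CPM, a ratio of 2.32 (1.55 to 3.54), and Lbr at 95.1 against 60.1 CPM, a ratio of 1.58 (1.31 to 1.91). Over all kept cells the same ratios were 0.672 (0.508 to 0.882) for Lmnb1, 0.431 (0.339 to 0.542) for Tmpo and 1.04 (0.901 to 1.19) for Lbr. The direction between 48 and 96 h for Lmnb1 and Tmpo thus turned with the cells that entered. This comparison was chosen after the values were seen. The 96 h cells were shallower, with a median of 2027 against 3223 UMIs, so that a cell with G2/M transcripts is more easily missed at 96 h, and the part of this in the result was not tested.

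The ratio held without the cells rich in eosinophil genes, where Lmnb1 was 3.48-fold (1.98 to 6.53) and Tmpo 1.98-fold (1.31 to 3.06) higher at 96 h. Within late granulocyte gene-rich cells alone, Lbr was 2.11-fold (1.34 to 3.51) higher at 96 h, at 103 against 48.8 CPM. There the intervals of Lmnb1 (1.61-fold, 0.6998 to 4.55) and Tmpo (2.64-fold, 0.986 to 9.96) included no difference, with 6 and 4 UMIs at 48 h.

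**Figure D4:**
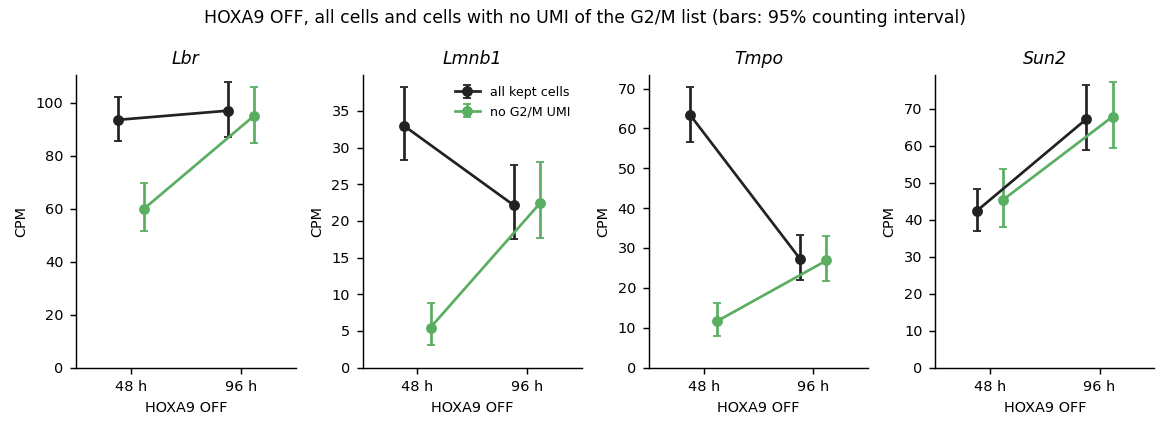
Level (CPM) of Lbr, Lmnb1, Tmpo and Sun2 at 48 and 96 h of HOXA9 OFF in all kept cells (black) and in cells with no UMI of the G2/M list (green), with exact 95% Poisson intervals. For Lmnb1 the black line goes from 33.0 to 22.1 CPM and the green line from 5.46 to 22.4 CPM.

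HOXA9 OFF cells were also set apart by their granule genes, each cell going to the list that held the largest share of its UMIs if that share was at least 2%. At 48 h, 235 cells were late granulocyte gene-rich, led by S100a8 at 22567 CPM, 207 were eosinophil gene-rich, led by Prg2 at 112360.0 CPM, 20 were primary granule gene-rich and 941 passed the limit for none. These classes are ranges of a share, not cell types, and 32, 4, 17 and 110 of their cells lay near the limit (at shares of 1.5% to 2.5%). Lmnb1 stood at 33.5 CPM in the late granulocyte gene-rich cells, at 2.68 CPM (2 UMIs) in the eosinophil gene-rich cells and at 38.4 CPM in cells of no class. The ratio between the first 2 was 12.5 (3.09 to 109). Tmpo stood at 59.7, 5.36 and 75.0 CPM, with a ratio of 11.1 (4.03 to 42.8). The eosinophil gene-rich cells thus held 2 UMIs of Lmnb1 and 4 of Tmpo among 745633.

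The other genes differed less between these classes. Emd stood at 65.5 CPM in late granulocyte gene-rich and 25.5 CPM in eosinophil gene-rich cells (2.57-fold, 1.47 to 4.66), and Sun2 at 61.2 and 32.2 CPM (1.90-fold, 1.12 to 3.28). Lbr stood at 83.0 and 56.3 CPM, where the interval of the ratio included no difference (1.47, 0.972 to 2.25). In these classes Sun2 was above the 6.68 CPM of the uninduced library, with 39.8 CPM (33.7 to 46.7) in cells of no class. The 20 primary granule gene-rich cells stood at 86.5 CPM (39.5 to 164) of Sun2 and 115 CPM (59.6 to 201) of Lbr. They stood at 48.0 CPM (15.6 to 112) of Lmnb1, 76.9 CPM (33.2 to 151) of Tmpo and 57.7 CPM (21.2 to 125) of Emd. The G2/M list held 0.0775% of the UMIs in late granulocyte gene-rich and 0.0164% in eosinophil gene-rich cells, with median depths of 2912 and 3570.0 UMIs, and the part of the cycle in these differences was not tested.

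At 96 h, 1294 of 1510 cells were late granulocyte gene-rich, 32 eosinophil gene-rich and 184 of no class. Lbr stood at 105 CPM (93.1 to 117) in the first class and at 60.9 CPM (43.3 to 83.3) in cells of no class, and Sun2 at 72.0 CPM (62.4 to 82.7) and 46.9 CPM (31.6 to 66.9). Tmpo was the other way round, with 25.6 CPM (19.96 to 32.2) and 39.1 CPM (25.3 to 57.7), although these intervals overlap. The 32 eosinophil gene-rich cells held 12 UMIs of Lbr, 7 of Sun2, 1 of Lmnb1 and 0 of Tmpo, which allows up to 28.3 CPM of Tmpo. The cells of no class were deeper than the first class, with medians of 3018 and 1952.5 UMIs.

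**Figure D5:**
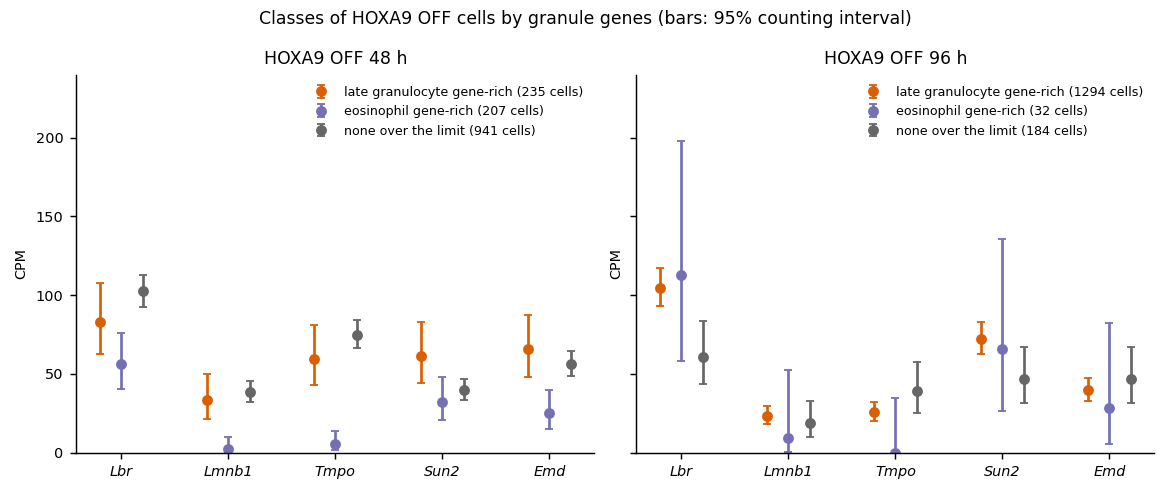
Level (CPM) of 5 genes in granule-gene classes of HOXA9 OFF cells at 48 h (left) and 96 h (right), with exact 95% Poisson intervals. At 48 h the eosinophil gene-rich cells lie at 2.68 CPM for Lmnb1 and 5.36 CPM for Tmpo, below both other classes shown.

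Other genes of the envelope were counted from lists. Of 18 further lamina and inner membrane genes, 8 reached 20 CPM, and with 10 CPM added none was 2-fold higher or lower in CAF-1 OFF. Of all genes, 5.22% were higher and 0.856% lower at 96 h of CAF-1 OFF. By CPM alone Syne1 was 11.7-fold (2.97 to 101) higher at 96 h of CAF-1 OFF, from 2 UMIs at 0 h and 30 at 96 h. In HOXA9 OFF at 96 h, 2 of the 8 were higher and 1 was lower, against 18.1% and 39.8% of all genes. Syne1 and Tor1aip1, whose protein LAP1 activates torsin, were higher, and Banf1, which encodes BAF, was lower. Syne1 reached a mean of 20 CPM only through the HOXA9 OFF libraries at 48 and 96 h, where it is called higher. Tor1aip1 stood at 22.7, 61.01 and 94.8 CPM (4.18-fold at 96 h, 3.32 to 5.31) and Banf1 at 559.6, 175 and 48.2 CPM (11.6-fold lower, 9.93 to 13.6). BAF and the LEM domain gene Tmpo were thus both low at 96 h of HOXA9 OFF. Tor1a (torsin A) was 1.90-fold (1.58 to 2.30) higher and Chmp7, an envelope sealing gene, 1.79-fold (1.25 to 2.62) lower at 96 h of HOXA9 OFF.

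Of 6 lamin processing genes, 3 reached 20 CPM. Rce1, the protease that trims farnesylated proteins, was 2.78-fold (2.10 to 3.73) lower at 96 h of HOXA9 OFF. It was the only one of the 3 at least 2-fold lower on the log2 scale with 10 CPM added, against 39.8% of all genes. Zmpste24, which completes lamin A processing, had 37.0, 35.4 and 31.0 CPM over CAF-1 OFF and 29.1, 10.7 and 12.8 CPM over HOXA9 OFF. Of 30 nuclear pore genes, 16 reached 20 CPM and 15 of these were lower at 96 h of HOXA9 OFF, against the 39.8% of all genes. The largest falls were Nup37, from 97.6 to 3.40 CPM, and Nup43, from 49.9 to 0.567 CPM. In CAF-1 OFF none of the 16 was 2-fold lower, where 0.856% of all genes were lower at 96 h. Nup37 and Nup43 stood at 62.5 and 33.6 CPM at 96 h of CAF-1 OFF against 104 and 63.4 CPM at 0 h.

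Of 8 chromatin partners of Lbr and the lamina, 5 reached 20 CPM, with 4 lower at 96 h of HOXA9 OFF (39.8% of all genes) and none at 96 h of CAF-1 OFF (0.856% of all genes). These include the HP1 genes, which bind methylated histone H3 and, in part, Lbr itself. Cbx5 (HP1α) went from 108 CPM at 0 h to 21.5 and 0.567 CPM in HOXA9 OFF, with 2 UMIs left at 96 h, a ratio of 191 (52.6 to 1581). Cbx1 (HP1β) was 4.44-fold (3.69 to 5.38) and Cbx3 (HP1γ) 5.99-fold (4.97 to 7.28) lower at 96 h. In CAF-1 OFF at 96 h the 3 genes were 1.77-fold (1.53 to 2.05), 1.83-fold (1.63 to 2.05) and 1.78-fold (1.62 to 1.97) lower. Lbr itself, at 97.0 CPM, kept 0.867 of its 0 h level at 96 h of HOXA9 OFF while its HP1 partners did not.

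Sterol synthesis genes were read because Lbr is also a sterol reductase. Of 20 genes, 14 reached 20 CPM. In HOXA9 OFF at 96 h, 9 were lower and none higher, against 39.8% and 18.1% of all genes, led by Fdps (176 to 13.1 CPM) and Sqle (50.1 to 3.40 CPM). In CAF-1 OFF at 96 h, where 0.856% of all genes were lower, 1 was lower, Hmgcs1, which makes HMG-CoA (73.1 to 27.1 CPM, 2.70-fold, 2.21 to 3.31). Tm7sf2, which encodes the other sterol C14 reductase, lay between 0.567 and 5.73 CPM in all 6 libraries.

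Cell cycle lists were lower at 96 h of HOXA9 OFF, as were Lmnb1 and Tmpo but not Sun2. Of the G2/M genes, 20 of 20 that reached 20 CPM were at least 2-fold lower at 96 h, and of the S phase genes 23 of 23, against 39.8% of all genes. In CAF-1 OFF none was, where 0.856% of all genes were lower at 96 h. The G2/M sum in CAF-1 OFF was 2266, 2566 and 2498 CPM, while the S phase sum was 3122, 3061 and 2423 CPM.

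The genes whose log2(CPM + 10) over the 6 libraries was most like a member's were found among those of at least 20 CPM. With the 6 points shared by all of them, Pearson's r describes likeness only. The pattern of Lmna rests on 2 to 18 UMIs per library, near the limit of detection. For Lbr these were Rabggta (0.992), Arl6ip5 (0.990) and Tmem214 (0.990), for Lmnb1 Gtf2h2 (0.999), Trappc13 (0.999) and Chchd6 (0.998), for Sun2 Mrpl33 (0.998), Itm2b and Stk24, and for Lmna Tgm3 (0.995), Mmp13 (0.993) and Tmem119 (0.986). Between members, Lmnb1 gave 0.963 with Tmpo, 0.933 with Lmnb2 and -0.943 with Sun2, and Lbr gave 0.747 with Lmnb1.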

How the data were processed

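Live iGMPs were sorted and profiled with droplet 3′ chemistry (10x Chromium v2). The authors mapped reads to GRCm38 with Cell Ranger (version 3.0.1 in the submitters' processing notes) and deposited whole-number UMI counts for 7821 barcodes and 27998 gene columns. Barcodes were kept if they showed between 200 and 6000 genes and if 13 mitochondrial genes made up no more than 10% of their UMIs. Doublets were left in. Scrublet in scanpy 1.11.5 called 2.13% of them, and an alternative leaves those out. UMI counts were summed per library and given as CPM, with exact Poisson intervals, and exact binomial (Clopper-Pearson) intervals for folds and shares. A count of 0 was read as a limit of 3 counts. Counting was tested on simulated data with counting error only, which hold no variation between clones or libraries and so do not speak to it. With 1 library per group, no test was possible. The 8 genes and all lists were chosen with earlier results of these data known. Besides the 8, named genes are Chaf1a and Chaf1b, 7 genes fixed by name, up to 2 of the largest rises and falls per list and arm, and 3 genes most like Lbr, Lmnb1, Lmna and Sun2. Promoters and positions come from RefSeq (GRCm38.p6). Alternatives changed the pseudocount (1 or 50 CPM), scaling (TMM of edgeR 4.0.16, among others), cells kept and the size called.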

Additional observations from a re-analysis of the deposited data

Results flagged for a closer look

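Lbr and Sun1 differed from their own 0 h library in opposite directions in CAF-1 OFF and HOXA9 OFF, each beyond its counting interval. Lbr was at 1.28 times its 0 h level at 48 h and at 1.27 times at 96 h of CAF-1 OFF, and at 0.836 and 0.867 times in HOXA9 OFF. Sun1 was at 1.51 times its 0 h level at 96 h of CAF-1 OFF and at 0.396 times in HOXA9 OFF. These differences between the arms were not tested, since each group is 1 library. For Lbr the HOXA9 OFF side turned with the scaling, and all its differences were smaller than the 1.31-fold between the uninduced libraries. In HOXA9 OFF, 49.9% (48 h) and 59.7% (96 h) of all genes counted had a lower log2 ratio than Lbr. For Sun1 at 96 h that share was 49.0%, so in this arm both lay near the middle of all genes. In CAF-1 OFF the shares were 84.5% and 79.3% for Lbr and 80.9% for Sun1 at 96 h.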

How the results depend on the processing

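Each count of genes at least 2-fold higher or lower was recomputed under 12 alternatives. In CAF-1 OFF at 96 h, 1 gene was higher with a pseudocount of 1 CPM and with a 1.5-fold size (Sun2), and 1 was lower with a 1.5-fold size (Lmnb1). Of all 4789 genes, 425 were higher with that pseudocount, and 561 were higher and 421 lower with that size. In HOXA9 OFF at 48 h, 0 were higher and 0 lower with a pseudocount of 50 CPM and with a 4-fold size, and 1 (Lmnb1) was lower with TMM or median-of-ratios factors. Of all 4789 genes, 290 were higher and 352 lower with that pseudocount, and 204 and 152 with that size. With TMM 641 of 4847 were lower, and with median-of-ratios factors 702 of 4869. In HOXA9 OFF at 96 h, 1 (Tmpo) was lower with a 4-fold size and 3 (Lmnb1, Lmnb2 and Tmpo) with no minimum level. Of all genes, 786 of 4789 were lower with that size and 2462 of 15185 with no minimum level. The median log2 ratio of all genes at 96 h of HOXA9 OFF was -0.56 with totals, -0.12 with TMM, -0.05 with median-of-ratios factors and -0.91 without mitochondrial and ribosomal protein genes in the total. The cause was not tested. Of 360 alternative log2 ratios of single genes, 314 lay within the counting interval of the value reported, and the directions of Sun2, Lmnb1, Tmpo, Lmnb2 and Sun1 in HOXA9 OFF did not turn in any. Outside the interval lay 127 alternative shares of cells against 17 within it, 20 ratios between cells of high and low cell cycle share against 24, and 13 CPM folds against 9. These alternatives change what is measured: the depth or UMIs required for a share, the cycle list for a ratio and the cells entered for a fold. Their counts therefore do not measure how far processing alone moves a value. Depth limits Lmna, with 2 to 18 UMIs per library, and the 96 h cells of HOXA9 OFF, with a median of 2043.5 UMIs. No paired analysis was possible because each group holds 1 library.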
